A study of Mus musculus with 4 samples.

Results

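Cholesterol is built, taken up, moved and exported by a set of genes that was followed here through 34 members of the 24169 genes in the deposited table. The members were listed by symbol and fall into 4 roles: 9 genes of the mevalonate part of synthesis, 12 genes of the squalene and sterol part, 4 regulators of SREBP and 9 genes of uptake, transport, storage and efflux. All 34 had a row. RNA had been sequenced from C8-D1A, an established mouse astrocyte line, in 2 untreated control libraries and in 2 libraries of cells kept in 1 mM MBP for 24 h. The labels spell the treatment only as MBP, a compound and not the myelin gene of that name, and the title of the series concerns DBP, dibutyl phthalate. No vehicle is named for the untreated cells. The labels do not say whether libraries of 1 group are separate cultures, so p-values measure the spread between these libraries, which may be technical.

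Synthesis starts from acetyl-CoA and runs through mevalonate to farnesyl diphosphate, then through squalene and lanosterol to cholesterol. The transcription factor SREBP2 switches on most of the enzymes when sterols in the endoplasmic reticulum are low. SCAP carries it to the Golgi apparatus, where it is cut into its active form, and the INSIG proteins hold SCAP back when sterols are plentiful. In the brain, which takes up little cholesterol from blood, astrocytes make cholesterol and pass it to neurons on particles that carry apolipoprotein E.

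The 4 libraries held between 23571000 and 25907000 reads, a depth worked out from what 1 read adds to a value. FPKM is a count of fragments divided by gene length and library size, so levels can be compared between genes. The astrocyte label was checked against 10 markers, of which 7, including Gfap, Aqp4, Slc1a3 and Aldh1l1, did not reach the filter given below. The other 3 were Vim, Glul and S100b, and Vim supplied nearly all of the list's summed level. That sum was 547 and 551 FPKM in control cells and 519 and 507 in the MBP libraries. Markers of the oligodendrocyte lineage summed to 123 and 119 against 109 and 109 FPKM, most of it Sox10, and 5 of the 7 in the table were tested. Neuron markers summed to 35.4 and 32.6 against 26.0 and 25.6 FPKM, with 2 of 5 tested and Snap25 at 0 in every library but control 2. Fibroblast and pericyte markers summed to 577 and 613 against 547 and 522 FPKM, with 2 of 5 tested. Acta2 alone had 570 and 606 FPKM in control cells and 541 and 516 in MBP, while Col1a1, Col1a2 and Dcn did not reach the filter. Markers of microglia and macrophages (1 of 4 tested) summed to 4.73 and 4.76 against 4.47 and 5.10 FPKM, and those of endothelium (1 of 5 tested) to 6.24 and 5.62 against 6.20 and 6.13, with Cldn5 at 0 in every library. In limma's test 0 genes of these lists passed, while limma-voom on recovered reads called the neuron marker Tubb3 (adjusted p = 0.0322, log2 fold change -0.44). Tubb3 made up most of the neuron sum, at 33.2 and 30.8 FPKM in control cells and 23.8 and 23.3 in MBP, and its limma adjusted p was 0.421. The part of these marker levels in the results below was not tested, and in bulk samples fewer cells of a type and less RNA per cell cannot be told apart.

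The question of the comparison was how treated cells differed from untreated cells. Most synthesis genes had lower values in the MBP libraries while genes of uptake, transport, storage and efflux lay closer to their control levels. Where tested synthesis genes were lower without overlap of the groups, MBP means were 65.7% (Mvd) to 93.0% (Sc5d) of control means. None of these differences passed the test. A gene entered it when 2 or more of the 4 libraries reached an FPKM of 1, as 31 of the 34 members did (Fdps, Abca1 and Abcg1 did not). Limma's test of log2(FPKM + 1), adjusted by Benjamini-Hochberg over 12403 genes, called 0 members at 0.05, and it called 0% of all tested genes. Adjusted p of the 31 members ran from 0.457 to 0.995. Limma-voom on recovered reads also called 0 members, and 0.124% of the genes it tested.

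Because no gene passed, the members are described by counts beside the same counts over all tested genes. The 2 MBP values lay under both control values in 19 of 31 members, and in 23.5% of all tested genes. They lay above both in 3 of 31 members and in 21.3% of all tested genes. At an unadjusted limma p under 0.05, 8 members were lower, against 5.87% of all tested genes, and 1 was higher, against 3.81%. That count of 8 came to 4 without MBP 2, and to 6 or 7 without each of the other libraries. The log2 fold change was negative in 24 of 31 members and in 51.6% of all tested genes. Its median was -0.13 over the members and -0.00477 over all tested genes. On these counts the members sat further towards lower values than the table as a whole. Changes of the 31 tested members were small on the scale of log2(FPKM + 1), from -0.46 to 0.18. That scale understates fold changes of low genes: the MBP mean of Mvd was 65.7% of its control mean. Fdps, under the filter and outside this range, was at 59.4%.

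**Figure D1:**
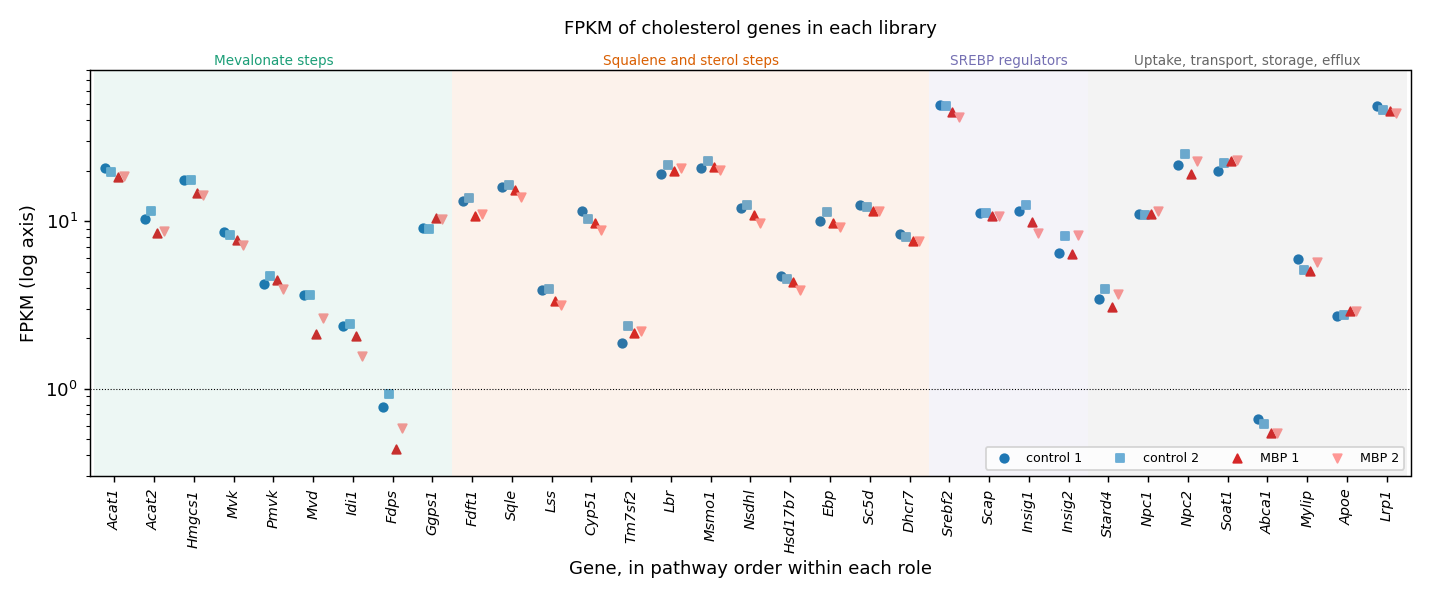
FPKM on a log axis for the 33 members with reads, in the order of the pathway within each role, with 1 symbol for each of the 4 libraries (blue circle and square for controls, red and pink triangles for MBP). The MBP symbols sit under the control symbols for most synthesis genes, above them for Ggps1, and among or near them for most genes at the right, and the dotted line marks an FPKM of 1.

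Counts by role are read against all tested genes, of which 51.6% were negative, 23.5% lower and 21.3% higher without overlap. Of the 20 tested synthesis genes, 17 had a negative log2 fold change, 15 had MBP values under both controls and 1 had MBP values above both. Their median log2 fold change was -0.14. The 8 tested genes of the mevalonate part had a median of -0.21 and the 12 of the squalene and sterol part a median of -0.14. The 4 regulators had a median of -0.12, with 3 lower without overlap. The 7 tested genes of uptake, transport, storage and efflux had a median of -0.03, with 1 lower and 2 higher without overlap and 4 overlapping. That last median turned to 0.04 without MBP 1 and to 0.04 without control 1, so its sign rests on single libraries. The difference between synthesis and transport genes was not tested.

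**Figure D2:**
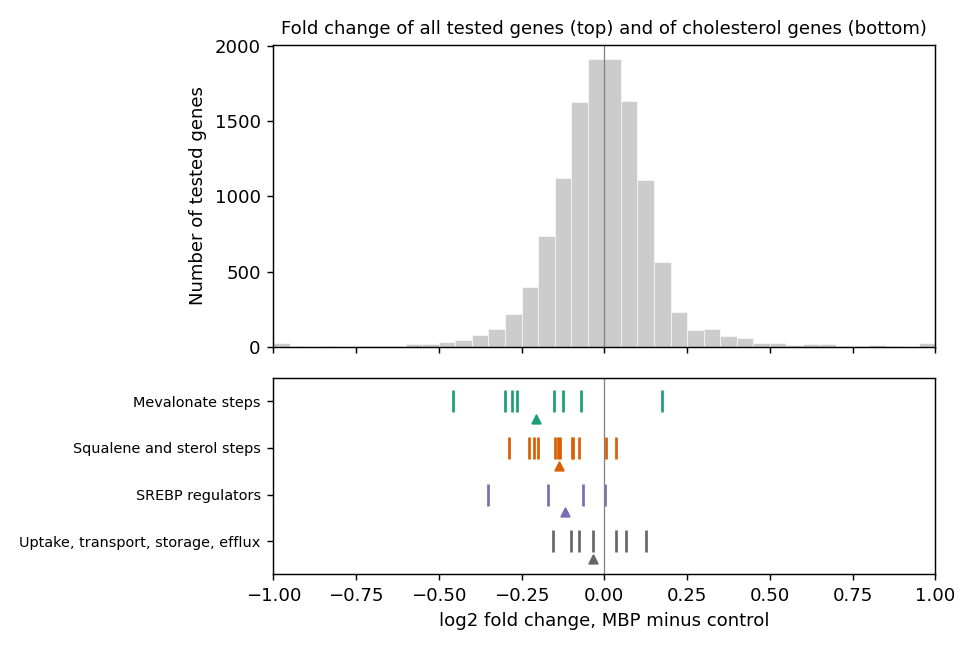
Top, number of tested genes per bin of log2 fold change (MBP minus control, log2 of FPKM + 1), with genes beyond the ends of the axis counted in the end bins. Bottom, 1 tick for each of the 31 tested members by role, with a triangle at the role's median. The medians are -0.21, -0.14, -0.12 and -0.03 from top to bottom, and the transport ticks fall on both sides of 0.

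Fold changes across the whole table followed the GC content of the transcript, with a Spearman rho of -0.44 over 12389 genes, which are not independent replicates. Among the 31 tested members rho was -0.08, given as a description over genes that share the same 4 libraries. The median GC content was 48.6% for the synthesis genes and 49.0% for all tested genes. After a loess correction for GC content and length the synthesis median stood at -0.15 and 17 of 20 were negative, against 49.9% of all tested genes. Of these, 16 were negative before and after it. After that correction 12 of the 20 lay lower without overlap, where the share of all tested genes was 19.3%, and 10 of the 31 members were lower at an unadjusted p under 0.05, against 3.6%. The regulator median moved to -0.05, with 2 lower and 1 higher without overlap. The log2 fold change of 17 of the 31 members moved by over 1.5 times or turned sign. Limma again called 0 members after the correction.

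Promoters are shown for 5 members because the synthesis genes are known to share control through SREBP2 and its partner NF-Y, which binds CCAAT. Sequences are from RefSeq (build GRCm38.p6), which gave a window for 27 of the 34 members, from 250 bases before to 50 after the start site. Where a gene had several, the window nearest to the gene's start in the deposited table was used. The printed part ends before the gene's first transcribed base in RefSeq and in the deposited table, so matches nearer the start or past it are counted but not shown: the 1 CCAAT of Cyp51, at -29, and another of Hmgcs1, at 10. Capitals mark the letters TCACNCCAC, a form of the sterol response element, and CCAAT, each searched on both strands, so that ATTGG is CCAAT on the other strand. Hmgcs1 (chr13:119690101-119690350, plus strand), Mvd (chr8:122443423-122443672, minus), Cyp51 (chr5:4104747-4104947, minus) and Insig1 (chr5:28071162-28071362, plus) stand for the genes of synthesis and its control that were lower in MBP. Lrp1 (chr10:127621149-127621398, minus) is a transport gene, also lower without overlap, whose window holds neither motif; those of Npc2, Soat1 and Mylip hold CCAAT.
Hmgcs1: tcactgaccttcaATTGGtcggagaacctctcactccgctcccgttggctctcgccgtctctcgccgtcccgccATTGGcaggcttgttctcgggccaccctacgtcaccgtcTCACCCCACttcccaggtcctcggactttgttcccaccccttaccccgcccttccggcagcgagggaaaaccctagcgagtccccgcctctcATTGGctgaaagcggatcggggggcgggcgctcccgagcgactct
Mvd: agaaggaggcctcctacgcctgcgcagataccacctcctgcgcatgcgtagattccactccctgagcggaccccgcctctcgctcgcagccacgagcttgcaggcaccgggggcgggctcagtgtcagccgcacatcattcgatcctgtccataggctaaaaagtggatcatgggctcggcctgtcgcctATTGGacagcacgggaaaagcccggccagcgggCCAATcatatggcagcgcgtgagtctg
Cyp51: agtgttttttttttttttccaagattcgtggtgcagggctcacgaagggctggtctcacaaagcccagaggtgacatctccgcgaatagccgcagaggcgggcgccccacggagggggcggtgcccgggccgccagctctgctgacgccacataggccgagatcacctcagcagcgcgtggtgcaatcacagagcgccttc
Insig1: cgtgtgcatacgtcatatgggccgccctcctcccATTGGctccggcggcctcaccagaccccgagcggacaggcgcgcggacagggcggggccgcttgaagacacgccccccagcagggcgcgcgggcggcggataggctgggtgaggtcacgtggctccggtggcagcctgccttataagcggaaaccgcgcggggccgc
Lrp1: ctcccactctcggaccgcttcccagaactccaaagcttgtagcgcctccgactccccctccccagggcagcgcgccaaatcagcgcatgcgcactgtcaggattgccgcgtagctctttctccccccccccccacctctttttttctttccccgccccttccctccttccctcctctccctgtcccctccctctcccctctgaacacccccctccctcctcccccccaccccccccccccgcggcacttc
CCAAT was found in the windows of 15 of 17 synthesis genes, 3 of 4 regulators and 3 of 6 transport genes. It was found in 39.5% of the windows of 8314 tested genes, 1 window each, and in 37.4% of all 32851 windows. The window of Ggps1, which was higher in MBP, held CCAAT. So did those of Pmvk, Tm7sf2, Lbr, Msmo1 and Insig2, whose groups overlapped. The windows of Acat2, Dhcr7 and Scap, lower without overlap, did not. A link of CCAAT with fold change was not tested. The form TCACNCCAC was found in 1 of the 17 synthesis windows, that of Hmgcs1, where it starts at -137 from the start site, and in 1.01% of the windows of tested genes. GGGCGG, the letters of an Sp1 site, was found in 15 of 17 synthesis windows and in 68.1% of those of tested genes. None of the 3 motifs contains another. A match is a description of letters and not a bound site, and other forms of the sterol response element were not searched.

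In the mevalonate part, the first enzymes had lower values in MBP than in controls. Acat1, the mitochondrial thiolase that also serves ketone metabolism, had 20.8 and 19.6 FPKM in control cells and 18.2 and 18.6 in the MBP libraries. Acat2, the cytosolic thiolase that joins acetyl-CoA units (chromosome 17, 12942890 to 12960747, minus strand, GRCm38), had 10.3 and 11.5 FPKM in control cells and 8.50 and 8.74 in MBP. The groups did not overlap, and the log2 fold change of Acat2 was -0.30 (SE 0.0721, 95% interval -0.49 to -0.12, limma adjusted p = 0.496). Acat3, a close copy beside it on the chromosome, can share its reads, so the split between them is uncertain. Hmgcs1, which makes HMG-CoA (chromosome 13, 119690379 to 119708260, plus strand), had 17.5 and 17.7 FPKM in control cells and 14.7 and 14.4 in MBP. For Hmgcs1 the libraries of a group lay within 0.03 of each other on the log2 scale, and the groups lay 0.26 apart (log2 fold change -0.26, SE 0.0523, 95% interval -0.40 to -0.13, limma adjusted p = 0.457). By unadjusted p it ranked 96 among all tested genes.

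Of the kinases that follow, 1 had separate groups. Mvk, mevalonate kinase, had 8.61 and 8.25 FPKM in control cells and 7.76 and 7.21 in MBP, without overlap. The log2 fold change of Mvk was -0.15, and -0.07 after the GC and length correction. Pmvk, phosphomevalonate kinase, had 4.20 and 4.71 against 4.44 and 3.94 FPKM, with overlapping groups. Its log2 fold change of -0.07 turned to 0.04 after the GC and length correction.

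The next 3 enzymes had the lowest levels of the mevalonate part and the lowest ratios of MBP to control means. Mvd, the decarboxylase that forms isopentenyl diphosphate, had 3.60 and 3.63 FPKM in control cells and 2.11 and 2.64 in MBP. Its MBP mean was 65.7% of the control mean, on 163 and 159 reads in control cells and 94 and 127 under MBP. The log2 fold change of Mvd was -0.46 (95% interval -0.72 to -0.19), the lowest of the 31 tested members on that scale. Idi1, the isomerase that acts next, had 2.36 and 2.43 FPKM in control cells and 2.05 and 1.56 in MBP. Fdps, which builds farnesyl diphosphate, lay under the filter with 0.781 and 0.928 FPKM in control cells and 0.437 and 0.578 in MBP, from 80, 92, 44 and 63 reads. Its MBP mean was 59.4% of the control mean without overlap, and limma-voom on recovered reads did not call it (adjusted p = 0.299, log2 fold change -0.75), nor did limma on log2(FPKM + 1) without the filter (adjusted p = 0.638, log2 fold change -0.30). The low level of Fdps stands out among enzymes that act in series: its control mean of 0.854 FPKM compares with 13.5 FPKM for Fdft1, the next enzyme towards sterols. A small nuclear RNA gene, Gm22935, lies within Fdps on the same strand at 17.4 to 31.6 FPKM, and how the authors assigned reads there is not given in the sources used here.

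Ggps1, on the branch that leads to geranylgeranyl groups for protein attachment and not to sterols, stood apart from the synthesis genes. It had 9.09 and 9.03 FPKM in control cells and 10.4 and 10.3 in MBP (chromosome 13, 14050659 to 14063488, minus strand). Both MBP values were higher, and Ggps1 was the 1 synthesis gene of which this was so (log2 fold change 0.18, SE 0.0549, 95% interval 0.03 to 0.32, limma adjusted p = 0.503). After the GC and length correction it stood at 0.10. Its transcript had the lowest GC content of the 34 members, 40.1%. It overlaps Arid4b on the opposite strand by 257 bases, and the log2 fold change of Arid4b was 0.10.

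In the squalene and sterol part, 9 of 12 genes were lower without overlap, against 23.5% of all tested genes. Fdft1, squalene synthase, which commits the pathway to sterols (chromosome 14, 63145150 to 63179578, minus strand), had 13.3 and 13.7 FPKM in control cells and 10.7 and 11.01 in MBP. The groups did not overlap, with a log2 fold change of -0.29 (SE 0.056, 95% interval -0.43 to -0.14, limma adjusted p = 0.457). Ctsb, a lysosomal protease gene on the opposite strand, overlaps Fdft1 by 774 bases at 223, 227, 216 and 223 FPKM in control 1, control 2, MBP 1 and MBP 2. Whether counting used strand is not given, so reads of the shared stretch cannot be told apart. The log2 fold change of Ctsb was -0.04.

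Sqle, squalene epoxidase, had 16.03 and 16.4 FPKM in control cells and 15.3 and 13.9 in MBP, and Lss, lanosterol synthase, had 3.86 and 3.91 against 3.35 and 3.15. In both genes the MBP libraries were the lower pair. Cyp51, the lanosterol demethylase, had 11.5 and 10.3 FPKM in control cells and 9.76 and 8.80 in MBP (log2 fold change -0.21, SE 0.0842, 95% interval -0.43 to 0.00420, limma adjusted p = 0.516). The groups of Cyp51 did not overlap, but the higher MBP value came close to the lower control value, and without control 1 the log2 fold change was -0.13. Akap9 overlaps Cyp51 by 166 bases on the opposite strand, at a log2 fold change of 0.13.

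The reductases and demethylases that follow were mixed. Tm7sf2, a sterol reductase, had 1.87 and 2.35 FPKM in control cells and 2.14 and 2.22 in MBP, and Lbr, which has the same activity and also anchors chromatin to the nuclear envelope, had 19.0 and 21.6 against 19.9 and 20.8. Groups of Tm7sf2 and Lbr overlapped, with log2 fold changes of 0.04 (95% interval -0.25 to 0.32) and 0.00557 (-0.19 to 0.21). Tm7sf2 overlaps Vps51 on the same strand by 532 bases, so its value is uncertain. Msmo1, the C-4 methyl oxidase, had 20.9 and 22.7 FPKM in control cells and 20.97 and 20.2 in MBP, with overlap. Nsdhl, the dehydrogenase that works with it (chromosome X, 72918557 to 72958514, plus strand), had 11.98 and 12.4 FPKM against 10.8 and 9.71. Nsdhl did not overlap and had a log2 fold change of -0.23 (SE 0.0719, 95% interval -0.41 to -0.04, limma adjusted p = 0.503).

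The last steps lay slightly lower in MBP. Hsd17b7, a sterol ketone reductase, had 4.70 and 4.50 FPKM in control cells and 4.33 and 3.89 in MBP. Ebp, the sterol isomerase, had 10.01 and 11.3 against 9.72 and 9.24 FPKM. Sc5d, the C-5 desaturase, had 12.5 and 12.2 against 11.5 and 11.5 FPKM, and Dhcr7, which reduces 7-dehydrocholesterol, had 8.42 and 8.02 against 7.63 and 7.64. None of these 4 genes overlapped between groups, where 23.5% of all tested genes were lower without overlap. Their log2 fold changes ran from -0.15 for Ebp to -0.09 for Dhcr7, with 95% intervals that included 0. Ebp was -0.07 without control 2 and -0.23 without control 1, and after the GC and length correction Ebp stood at -0.09, Dhcr7 at -0.04 and Sc5d at -0.16. Along the listed order of the 20 tested synthesis genes, Spearman's rho of position with log2 fold change was 0.35, a description over genes that share the 4 libraries. That order placed the branch gene Ggps1 after Idi1, lacked Fdps, and set Tm7sf2 and Lbr, which share an activity, as successive steps. It is therefore not strictly the route to cholesterol.

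**Figure D3:**
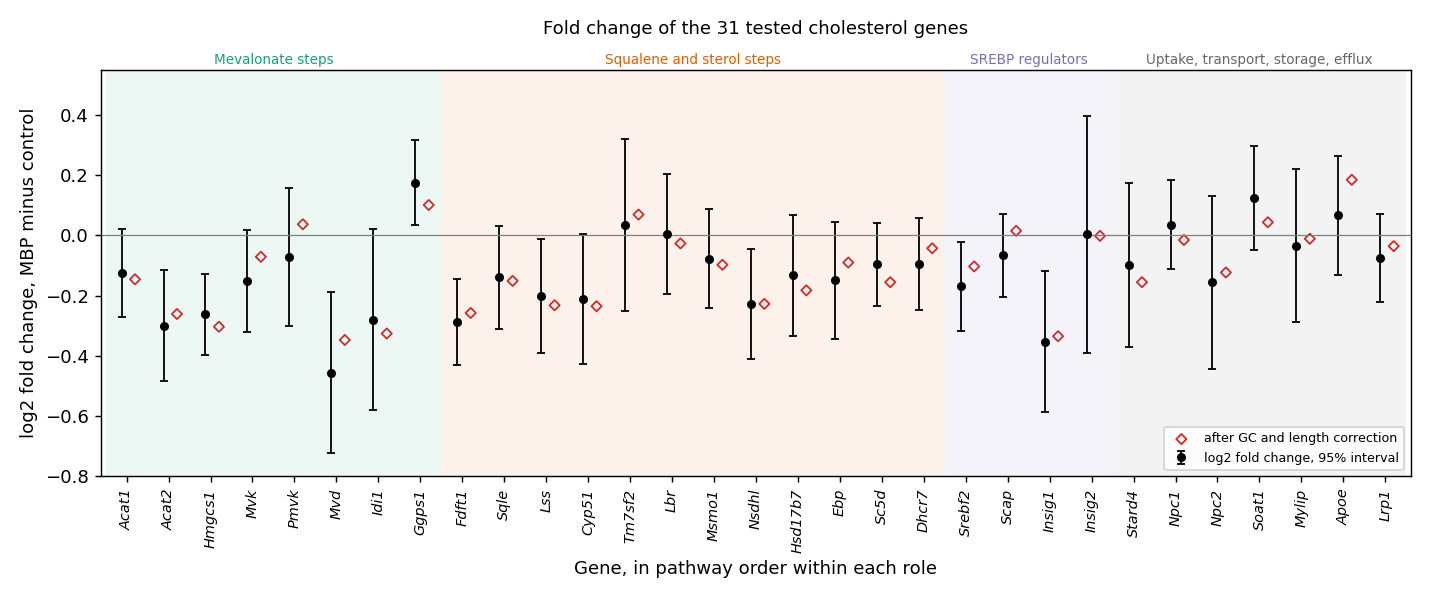
Log2 fold change (MBP minus control, log2 of FPKM + 1) of the 31 tested members in pathway order by role, with limma's 95% interval, and the value after the GC and length correction as red diamonds. Intervals of Acat2, Hmgcs1, Mvd, Fdft1, Lss, Nsdhl, Srebf2 and Insig1 lie under 0 and that of Ggps1 lies above it, before any adjustment for the number of genes tested.

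Among the SREBP regulators, Insig1 had the lowest log2 fold change and Insig2 none that exceeded its spread. Insig1, which retains SCAP and is itself a target of SREBP (chromosome 5, 28071363 to 28078662, plus strand), had 11.5 and 12.5 FPKM in control cells and 9.93 and 8.46 in MBP. Its MBP mean was 76.7% of the control mean, with no overlap (log2 fold change -0.35, SE 0.0919, 95% interval -0.59 to -0.12, limma adjusted p = 0.496). After the GC and length correction it stood at -0.34. Insig2, the paralog that is not under the same sterol control, had 6.43 and 8.18 FPKM in control cells and 6.37 and 8.30 in MBP. In Insig2 the libraries of a group differed by 0.31 and 0.34 on the log2 scale, while the groups differed by 0.00313 (95% interval -0.39 to 0.40), so an effect of the size seen for Insig1 was not detectable. A test of the difference between Insig1 and Insig2 was not made.

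Srebf2, the gene of SREBP2 (chromosome 15, 82147266 to 82205376, plus strand), had the highest control level of the 34 members. It had 49.5 and 48.7 FPKM in control cells and 45.1 and 42.1 in MBP, without overlap (log2 fold change -0.17, SE 0.0583, 95% interval -0.32 to -0.02, limma adjusted p = 0.503). After the GC and length correction it stood at -0.10. Scap, its escort, had 11.2 and 11.3 FPKM in control cells and 10.7 and 10.7 in MBP (chromosome 9, 110333288 to 110384950, plus strand). The 2 groups of Scap were tight and separate, but only 0.07 apart on the log2 scale (log2 fold change -0.07, SE 0.0538, 95% interval -0.20 to 0.07, limma adjusted p = 0.679), and the value after the GC and length correction was 0.02. Messenger RNA levels do not show how much SREBP2 was cleaved, which was not measured.

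Genes that bring cholesterol in or move it inside the cell mostly had groups that overlapped. Lrp1, a large receptor that takes up apolipoprotein E particles (chromosome 10, 127538161 to 127621148, minus strand), had 48.7 and 46.0 FPKM in control cells and 45.5 and 44.3 in MBP. Its groups did not overlap, with a log2 fold change of -0.08 (SE 0.0568, 95% interval -0.22 to 0.07, limma adjusted p = 0.658), the only transport gene lower without overlap among the 7 tested. It was -0.04 after the GC and length correction, -0.04 without control 1 and -0.12 without control 2. Mylip, the ligase that marks lipoprotein receptors for breakdown, had 5.97 and 5.08 against 5.04 and 5.69 FPKM, and its groups overlapped.

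Npc1, the membrane protein that exports cholesterol from lysosomes, had 10.99 and 10.9 FPKM in control cells and 10.97 and 11.6 in MBP. Npc2, the soluble protein that hands cholesterol to it (chromosome 12, 84754562 to 84773152, minus strand), had 21.8 and 25.2 against 19.1 and 22.9 FPKM. The groups of Npc1 and Npc2 overlapped, and for Npc2 the libraries of a group differed by 0.20 and 0.25 on the log2 scale (log2 fold change -0.16, SE 0.112, 95% interval -0.44 to 0.13, limma adjusted p = 0.647). The value of Npc2 was -0.03 without MBP 1, -0.06 without control 2, -0.26 without control 1 and -0.28 without MBP 2. Stard4, a carrier of sterol between membranes, had 3.43 and 3.95 FPKM in control cells and 3.09 and 3.67 in MBP, with overlap.

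Genes of storage and efflux were not lower where they passed the filter. Soat1, which esterifies cholesterol for storage (chromosome 1, 156424525 to 156474331, minus strand), had 20.01 and 22.2 FPKM in control cells and 22.8 and 23.3 in MBP. Both MBP values of Soat1 were above both controls. Each exceeded the higher control by less than the gap between the controls. The log2 fold change of Soat1 was 0.12 (SE 0.0671, 95% interval -0.05 to 0.30, limma adjusted p = 0.566). It stood at 0.04 after the GC and length correction, at 0.05 without control 1 and at 0.19 without control 2. Apoe, apolipoprotein E, was low for a gene that astrocytes in brain express strongly, at 2.71 and 2.74 FPKM in control cells and 2.89 and 2.91 in MBP. Apoe rested on 141 and 138 reads in control cells and 148 and 161 under MBP, and its log2 fold change was 0.07 (95% interval -0.13 to 0.27). After the GC and length correction it was 0.18.

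The efflux pumps were low or listed at 0. Abca1, which loads cholesterol onto apolipoproteins, had 0.654 and 0.618 FPKM in control cells and 0.544 and 0.544 in MBP, under the filter. Its MBP mean was 85.5% of the control mean without overlap, from 165, 151, 135 and 146 reads. Limma-voom on recovered reads did not call Abca1 (adjusted p = 0.615, log2 fold change -0.23). Limma on log2(FPKM + 1) without the filter did not either (adjusted p = 0.760, log2 fold change -0.08). Abcg1, its partner in efflux to larger particles, was listed at 0 in every library.

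**Figure D4:**
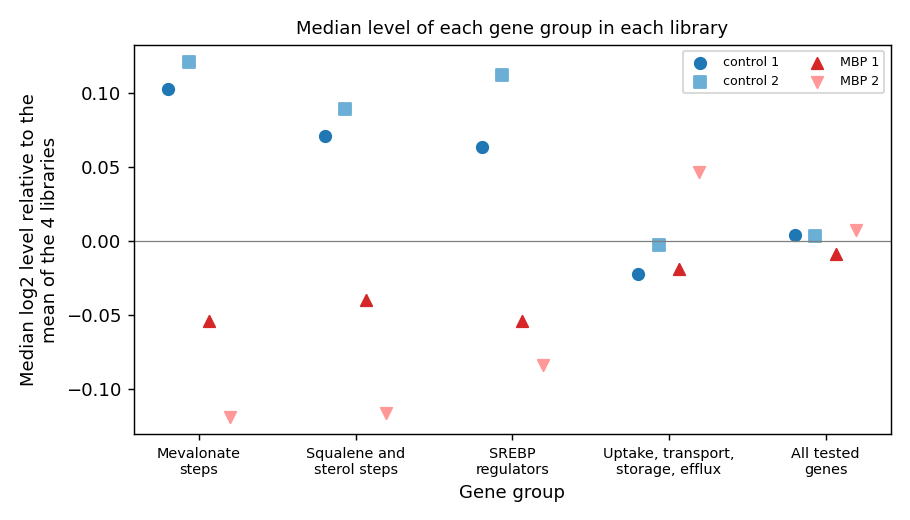
Median over each group of genes of the log2 level (log2 of FPKM + 1) relative to the mean of the 4 libraries, 1 symbol per library. Control medians of the mevalonate, squalene and sterol, and regulator genes lie between 0.06 and 0.12 and MBP medians between -0.12 and -0.04, while those of the transport genes lie between -0.02 and 0.05 and those of all tested genes between -0.00907 and 0.00718.

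By library, both MBP medians of the synthesis genes lay under both control medians. The median log2 level of the synthesis genes, relative to the mean of the 4 libraries, was 0.08 in control 1 and 0.10 in control 2, and -0.04 in MBP 1 and -0.12 in MBP 2. For transport genes it was -0.02 and -0.00281 in control cells and -0.02 and 0.05 in the MBP libraries. MBP 2 was thus the lowest library for synthesis and the highest for transport. These medians describe 4 libraries and carry no test.

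A further 40 genes of cholesterol handling were listed, with earlier results of these data already known. They included proteases and ligases of the SREBP route, oxysterol receptors, other lipoprotein receptors, sterol carriers and sterol-metabolizing enzymes. The table held 36 and 30 were tested. In limma's test 0 passed, with 3 of 30 lower (5.87% of all tested genes) and 0 higher (3.81%) at an unadjusted p under 0.05. The log2 fold change was negative in 21 of 30 genes, against 51.6% of all tested genes, and its median was -0.05. Without overlap 11 of 30 were lower and 2 higher, against 23.5% and 21.3% of all tested genes. The 2 genes with the lowest unadjusted p on the lower side were Nr1h2, the oxysterol receptor LXR beta, and Tmem97, a sterol-responsive membrane protein. Nr1h2 had 7.90 and 7.89 FPKM in control cells and 6.76 and 6.63 in MBP, and Tmem97 had 24.9 and 25.4 against 22.8 and 22.6. Their log2 fold changes were -0.21 and -0.14 (limma adjusted p = 0.503 and 0.512). On the higher side they were Mbtps2, the protease that makes the second cut of SREBP, at 4.91 and 5.08 against 5.59 and 5.91 FPKM, and Vldlr, a lipoprotein receptor, at 8.51 and 8.85 against 9.19 and 10.05. Groups did not overlap in these 4 genes, which were chosen by lowest unadjusted p, so the lack of overlap adds no support. The log2 fold changes of Mbtps2 and Vldlr were 0.17 and 0.13 (limma adjusted p = 0.514 and 0.558). After the GC and length correction the values were -0.10 for Nr1h2, -0.06 for Tmem97, 0.09 for Mbtps2 and 0.05 for Vldlr.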

How the data were processed

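RNA of 4 samples of C8-D1A cells was sequenced, 2 of them treated. Libraries were directional and depleted of ribosomal RNA, per the labels' protocols. Named in the submitters' processing notes are GRCm38, HISAT2 and bcl2fastq. What counted the reads, on which annotation and with which use of strand is not given in the sources used here. FPKM values of 24169 genes were deposited by the authors. Columns were matched to samples by title, and replicates were numbered in accession order, which pairs nothing.

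GENCODE mouse release 21 gave lengths and GC content. FPKM times length came in whole multiples of the worth of 1 read, within 0.05 for at least 99.95% of values under 1000 reads of single-exon genes and for 93.8% to 94.0% over all genes. This gave reads and depth. Read numbers are not independent molecules, and intervals are limma's.

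Values were tested as log2(FPKM + 1), which understates fold changes of low genes, for genes that reached an FPKM of 1 in 2 or more of 4 libraries. The two-sided test used lmFit and eBayes with a trend (limma 3.58.1, R 4.3.3), adjusted by Benjamini-Hochberg, at a threshold of 0.05. It was tested on simulated data with planted changes larger than those of the tested members. Whether it finds changes of their size was not measured. The members and lists were chosen with earlier results of these data known. Full statistics are given for up to 3 members per role with a mean FPKM of at least 5 in either group and the lowest unadjusted p, and for the other cholesterol genes the 2 with the lowest p in each direction are named. Some genes of the pathway are not reported here. Alternatives were a pseudocount of 0.1, quantile normalization, TPM, a filter of 5 or none, scaling by median of ratios, a robust spread, protein-coding genes only, a loess fit on GC content and length (span 0.5), limma-voom on recovered reads (mean of at least 10) and each library left out.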

Additional observations from a re-analysis of the deposited data

How the results depend on the processing

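In 10 alternatives that kept all libraries, the counts of members and both medians stayed within 1.5 times of the reported count or within the spread between libraries, and 0 members were called, with 1 exception among all counts: limma-voom on recovered reads called 18 of 14473 genes (0.124%) against 0 of 12403, with 0 members among them and a lowest adjusted p of 0.162 for a member. TPM moved the split of all tested genes at an unadjusted p under 0.05 from 728 lower and 473 higher to 509 and 543, and protein-coding genes only to 831 and 332. Over the members that split was 8 lower and 1 higher, and 7 and 1 in TPM. The sign of 5 members turned after the GC and length correction, to 0.0370 for Pmvk, -0.0267 for Lbr, 0.0152 for Scap, -0.00162 for Insig2 and -0.0153 for Npc1; the cause was not tested. With 1 library left out, where the lone library is assumed to vary like the others, the synthesis median ran from -0.196 to -0.112, the transport median from -0.0569 to 0.0406, members lower at an unadjusted p under 0.05 from 4 to 7, Insig2 from -0.165 to 0.171, Lbr from -0.0836 to 0.0948, Mylip from -0.133 to 0.0646 and Tm7sf2 from -0.0751 to 0.146. The log2 fold change moved by over 1.5 times or turned sign without at least 1 library in 16 of the 31 members and stayed within that in 15. The filter is on FPKM, so reads under it differ: Fdps had 44 to 92 and Abca1 135 to 165. No paired analysis was possible because the replicate numbers were given in accession order and the groups share fewer than 2 numbers in the labels.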
